A study of Mus musculus with 8 samples.

Results

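The early response of mouse hematopoietic stem and progenitor cells (HSPCs) to interferon alpha (IFNα) is described here as the difference between 4 mice collected 3 h post-treatment and 4 mice given PBS. Cell barcodes of both time points were kept when their hashtag call named 1 mouse, at least 700 genes were detected and at most 5% of unique molecular identifiers (UMIs, each counting a captured RNA molecule) were mitochondrial. This left 4135 of the 10046 kept cells of the series, 2474 in control and 1661 at 3 h, from 8 of its 16 mice. The UMIs of all kept cells of a mouse were summed, and the sums were compared across 12042 genes.

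All mice carried a wildtype genotype and were 12 to 14 weeks old. Treated mice had been injected under the skin with recombinant mouse IFNα at 50000 IU for every 20 g of weight, and the control mice with 100 µl of PBS. The cells were bone marrow cells without lineage markers and with c-Kit (Lin- c-Kit+, LK), to which the sorters had added Lin- c-Kit+ CD150+ CD48- CD34- cells so that hematopoietic stem cells (HSCs) were not rare, which means that the shares of cell types were set in part by the sort. The 4 mice of a time point were tagged with hashtag antibodies, pooled and loaded into 1 droplet library of the 10x Genomics 3' kit, so that time point and library cannot be told apart, while the mice within a library are the replicates.

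IFNα is a type I interferon, a cytokine of the antiviral defense that nearly every nucleated cell can sense. It binds the receptor subunits IFNAR1 and IFNAR2, whose kinases TYK2 and JAK1 phosphorylate factors of the STAT family. With IRF9 these form the complex ISGF3, which binds interferon-stimulated response elements in the promoters of interferon-stimulated genes (ISGs). Among the products of the ISGs are the inhibitors of the pathway itself, such as USP18 and the SOCS proteins. In the bone marrow, type I interferon is known for bringing dormant HSCs into cycle.

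The promoters of 4 antiviral ISGs, whose genes were among those with the largest increases, are printed to show how the response element can be arranged. They come from RefSeq (GRCm38.p6), run from 250 bases before to 50 bases after the start of transcription and are written 5' to 3' on the gene's own strand. Capitals mark matches to TTTCNNTTTC on either strand, the core letters of the interferon-stimulated response element, and overlapping matches form 1 run. Only promoters with at least 1 such match could be chosen for printing, so a match in each was fixed beforehand.

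Isg15 (chr4:156200769-156201068, minus strand): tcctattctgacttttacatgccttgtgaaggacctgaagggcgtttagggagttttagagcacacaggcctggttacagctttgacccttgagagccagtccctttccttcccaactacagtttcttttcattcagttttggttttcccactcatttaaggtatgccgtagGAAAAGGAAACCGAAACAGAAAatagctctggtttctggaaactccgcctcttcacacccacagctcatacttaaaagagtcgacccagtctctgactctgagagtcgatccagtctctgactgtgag
Ifit1 (chr19:34640639-34640938, plus strand): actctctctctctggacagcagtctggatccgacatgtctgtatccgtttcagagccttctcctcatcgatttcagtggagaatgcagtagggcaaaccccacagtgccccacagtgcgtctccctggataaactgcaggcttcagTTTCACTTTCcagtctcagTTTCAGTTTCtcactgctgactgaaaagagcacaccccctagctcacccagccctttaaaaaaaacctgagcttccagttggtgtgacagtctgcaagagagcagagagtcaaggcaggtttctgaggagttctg
Ifit3 (chr19:34583279-34583578, plus strand): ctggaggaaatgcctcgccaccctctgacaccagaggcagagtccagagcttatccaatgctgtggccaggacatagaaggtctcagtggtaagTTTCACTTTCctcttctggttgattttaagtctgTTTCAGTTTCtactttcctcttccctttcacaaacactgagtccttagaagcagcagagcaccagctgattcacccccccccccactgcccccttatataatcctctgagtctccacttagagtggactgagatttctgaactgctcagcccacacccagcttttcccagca
Rsad2 (chr12:26456403-26456702, minus strand): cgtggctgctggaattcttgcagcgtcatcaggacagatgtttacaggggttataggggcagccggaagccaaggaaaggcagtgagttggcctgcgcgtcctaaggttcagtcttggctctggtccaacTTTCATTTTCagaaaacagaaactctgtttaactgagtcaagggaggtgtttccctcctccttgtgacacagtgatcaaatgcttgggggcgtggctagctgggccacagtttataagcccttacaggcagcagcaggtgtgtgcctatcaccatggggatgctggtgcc

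The Isg15 window held 3 overlapping matches, the first beginning 78 bases before the start, whereas Ifit1 and Ifit3 held 2 separate matches each and Rsad2 held 1. Of the 27025 genes with a promoter in the table, 3.99% had at least 1 match, and of the 9086 tested genes found there 3.90% did. The share was 20.1% (82 of 407) among the genes higher at 3 h by the rule given below, and 50.7% (38 of 75) among those higher by over 8-fold. It was 2.92% (4 of 137) among genes lower at 3 h. Matches to TTCNNNGAA, the letters read by STAT dimers, were found in 9.55% of all genes and 12.5% of the genes higher at 3 h, and the motifs can overlap each other. A match describes the letters of the window only.

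The cells at 3 h held fewer UMIs. Kept UMIs summed to between 4903401 and 8553452 per mouse at 3 h and to between 1102706 and 18694412 in control. The median per cell lay between 11355 and 13248 UMIs at 3 h against 15819 to 19085 in control, without overlap. A two-sided exact permutation test gave p = 0.0286, the smallest that 4 against 4 mice allow. The mice of a time point shared 1 library, so this p does not tell time point from library. Control mouse 4 had 58 kept cells, against 764 to 827 in the other control mice and 330 to 613 at 3 h. Its interferon values rest on few cells. The top cell for each gene held 50 of the mouse's 71 Isg15 UMIs, 14 of its 15 Ifit3 UMIs and all 56 of its Cxcl10 UMIs. Whether this was the same cell was not checked. Without that mouse 654 genes were higher and 212 lower by the 2-fold rule below, against 627 and 197 with it. Barcodes without a hashtag call made up 17.2% of all at 3 h and 5.2% in control, and 15 barcodes occurred in both libraries, none of them kept in both. Of the markers of cells that the gate should lack, 1 of 8 T cell genes in the count matrices passed the filter on low counts. That gene, Lck, stood at 2.61 to 3.58 CPM in control and 4.93 to 6.14 at 3 h. Sums over a list, here and below, leave out genes that did not pass the filter. CPM are UMI counts scaled by each mouse's total, which was adjusted with the TMM factors described below. Cd3d, Cd3e and Cd3g, and the macrophage genes C1qa, C1qb and C1qc, did not pass that filter. The 5 tested macrophage markers summed to 5.22 to 15.3 CPM in control and 5.91 to 9.1 at 3 h, with 1 higher by 2-fold and 2 lower. B cell, plasma cell, NK cell, plasmacytoid dendritic, mature neutrophil and endothelial or stromal markers gave 1 tested gene higher by 2-fold and 3 lower.

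A large part of the measured transcriptome differed 3 h post-treatment, and more of the 2-fold changes were increases than decreases. By the quasi-likelihood test of edgeR, with Benjamini-Hochberg correction across the whole table, 627 of the 12042 genes (5.21%) were higher at 3 h with an adjusted p under 0.05 and a log2 fold change over 1 (a 2-fold change), and 197 (1.64%) were lower by the same limits. Both groups of mice were apart, with every mouse at 3 h on one side of every control mouse, for 549 of the 627 and 105 of the 197. Without a minimum fold, 2365 genes (19.6%) passed as higher and 2318 (19.2%) as lower. In all, 16.2% of the tested genes were above every control mouse in each mouse at 3 h and 13.1% below, and these shares are the background for the counts that follow. The CPM of the genes of the first set summed to 3.52% ± 0.0592 (SD, n = 4) of the nominal CPM total in control and 11.1% ± 0.257 at 3 h. With TMM factors the CPM of a mouse need not add up to that total, so these are not exact shares of its UMIs. With scaling by library size alone, in place of TMM factors that assume that most genes do not change, the median log2 fold change of all tested genes moved from -0.03 to -0.18. The split then became 528 higher and 294 lower with a 2-fold change, and 1588 higher and 4635 lower without a minimum. Small changes are therefore stated relative to the bulk of the genes.

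**Figure D1:**
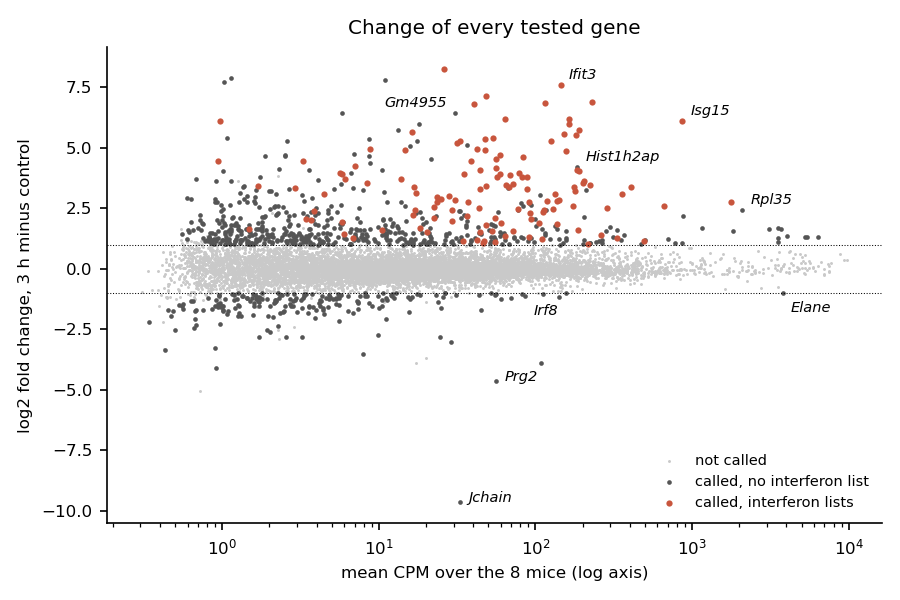
Log2 fold change of each of the 12042 tested genes against its mean CPM over the 8 mice (log axis). Red points are interferon-list genes called with a 2-fold change, dark points other such genes, grey points the remaining genes, and dotted lines mark a log2 fold change of 1 in either direction. The called genes run from -9.62 (Jchain) to 8.27, and the red points all lie above the upper line.

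Of 170 tested genes in 8 interferon lists, 153 passed as higher and 126 (74.1%) did so with a 2-fold change, while 4 passed as lower. These 126 made up 20.1% of the 627, so that 501 genes of the first set stood in none of the lists. Membership went by gene symbol, so a listed gene that the count matrices hold under another symbol would count as outside. Among the 117 genes that were higher by over 8-fold, 68 were in the lists.

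The receptor itself was not among the changed genes at the 2-fold limit, whereas the factors below it rose. Ifnar1 and Ifnar2 had log2 fold changes of -0.17 ± 0.10 (SE, adjusted p = 0.167 in edgeR) and -0.16 ± 0.06 (adjusted p = 0.0439), the latter call being lost under 14 of the 21 other settings tried. Stat2, which is part of ISGF3, stood at 5.75, 6.36, 6.07 and 5.22 CPM in control mice 1 to 4 and at 35.2, 51.5, 48.9 and 41.2 CPM in the mice at 3 h. Every mouse at 3 h was thus above every control mouse, with a log2 fold change of 2.88 ± 0.12 (adjusted p = 1.5e-19). Irf7, the factor that amplifies interferon production, rose by 5.53 ± 0.17. Of the 20 receptor, kinase and factor genes, 16 passed as higher and 12 of these with a 2-fold change, with a median log2 fold change of 1.34 against -0.03 over all tested genes. Sp100 (2.62), Ifi35 (2.47) and Batf2 (3.09) rose too, the first a nuclear body protein and the last a factor of the AP-1 family.

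Several inhibitors of the pathway were induced alongside it. Usp18, which displaces JAK1 from the receptor and removes ISG15 from proteins, stood at 5.65, 6.42, 6.07 and 11.3 CPM in control and at 308, 317, 290 and 264 CPM at 3 h, a log2 fold change of 5.58 ± 0.08 (adjusted p = 2.1e-32). Socs1, an inhibitor of the JAK kinases, rose by 2.97 ± 0.13 and Socs3 by 2.01 ± 0.26. The ubiquitin-like protein gene Isg15 went from 26.3, 18.2, 24.1 and 61.8 CPM to 1738, 1807, 1707 and 1521 CPM. The lowest value at 3 h was many times the highest in control, although control mouse 4 stood apart within its group, and the log2 fold change was 6.11 ± 0.18. The conjugating enzyme Ube2l6 and the ligase Herc6, which attach ISG15 to its targets, both rose by 3.37. The feedback list of 14 genes also holds Isg15, Uba7, Ube2l6 and Herc6, so its counts are not counts of inhibitors alone. Of the 14 genes 10 passed as higher, all of them with a 2-fold change, 3 did not pass and 1 passed as lower. The latter, the phosphatase gene Ptpn6, named after its values were seen, went from 74.1 to 80.9 CPM in control to 59.6 to 62.6 at 3 h and fell by 0.33 on the log2 scale.

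Sensors of viral RNA and the 2',5'-oligoadenylate synthetases (OAS), which switch on RNase L, were induced almost throughout. Of 20 tested members 19 passed as higher, 18 of them with a 2-fold change, and the median log2 fold change was 3.65. Zbp1, a sensor of Z-form nucleic acid that can trigger cell death, rose by 5.30 ± 0.19, from 4.54 to 21.8 CPM over the control mice to 217 to 260 CPM at 3 h. Oas1g (5.66), Oas3 (4.97), Oas2 (4.90), Oasl2 (4.86) and Oasl1 (4.70) rose as well, though the genes of this family are so alike that reads of Oas1g and its neighbors may have been assigned among them. Of 9 genes of DNA sensing, most of them PYHIN genes, which code for DNA-binding proteins, 7 passed as higher and 1 as lower. Ifi203 stood at 68.0, 66.4, 75.5 and 89.6 CPM in control and at 710, 759, 789 and 711 CPM at 3 h, and Mndal (3.1), Mnda (4.90) and Ifi204 (6.21) rose as well. The DNA sensor gene Mb21d1, which codes for cGAS, rose by 1.16 ± 0.06.

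Antiviral effectors gave the largest increases of the comparison. Of 57 tested members 56 passed as higher and 50 of them with a 2-fold change, with a median of 3.11. Ifit1, which binds viral RNA lacking the methylated cap of the host, stood at 3.47, 2.78, 4.58 and 13.1 CPM in control and at 473, 497, 452 and 399 CPM at 3 h. Its log2 fold change was 6.88 ± 0.19 (adjusted p = 2.8e-12), and no mouse at 3 h came near the control range. Ifit3 (7.58), Ifit3b (7.14) and Ifit1bl1 (8.27) rose by more, on control values between 0.104 and 13.1 CPM, and since Ifit3 and Ifit3b, like Ifit1 and Ifit1bl1, are close copies, their separate values are uncertain. Ifit3 was 6.44 by the likelihood ratio test, 6.26 by DESeq2 and 6.92 when cells were weighted to equal cluster shares, and Ifit3b was 8.74 without control mouse 1. Mx1 (6.80), a GTPase that blocks viral nucleocapsids, Rsad2 (6.21), which makes a chain-terminating nucleotide, and Ifi44 (5.73) rose in every mouse at 3 h. The exception among the 57 was Ly6c2, a surface protein gene of the monocyte and neutrophil lineage named after its values were seen, which passed as lower with -0.78.

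**Figure D2:**
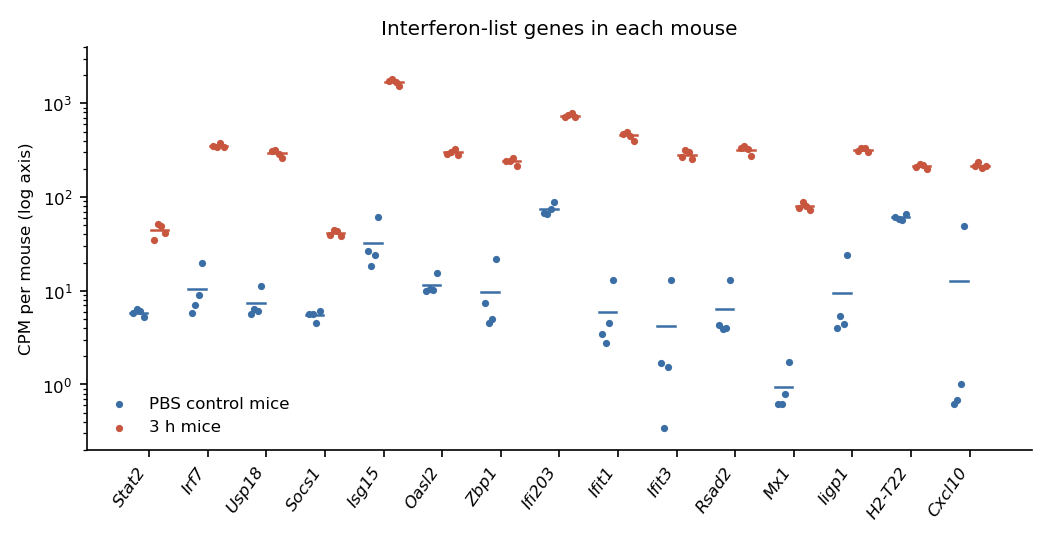
CPM (log axis) of 15 interferon-list genes in each of the 4 control mice (blue) and the 4 mice at 3 h (red). The genes run from transcription factors, inhibitors and Isg15 to sensors, effectors, a GTPase, a class I gene and a chemokine. A bar marks each group mean. In each of the 15 genes the 4 mice at 3 h lie above the 4 control mice, and control mouse 4 is the highest control point for Isg15, Ifit3 and Cxcl10.

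All 15 interferon-inducible GTPases passed as higher with a 2-fold change, with a median of 3.72. Many of these proteins attack the vacuoles in which bacteria and parasites live. Iigp1 rose from 3.99, 5.39, 4.42 and 24.4 CPM to 308, 331, 338 and 303 CPM, by 5.97 ± 0.24 on the log2 scale (5.36 by the likelihood ratio test and 5.19 by DESeq2), with control mouse 4 far above the other control mice. Tgtp1 (5.29) and Tgtp2 (4.17), which are close copies of each other, and Gvin1 (3.91) rose as well. Genes of antigen presentation by class I molecules changed less. Of 21 tested, 20 passed as higher but 8 of them with a 2-fold change, and the median was 0.89. H2-T24 rose by 3.71 ± 0.16, H2-T22 rose from 57.5 to 66.1 CPM in control to 201 to 225 CPM at 3 h, by 1.85 ± 0.06, and Nlrc5, the transactivator of the class I genes, rose by 2.21 ± 0.13. Class I genes resemble each other closely, so reads may have been split between them. None of the 8 class II genes passed in DESeq2 or in edgeR with TMM factors. In the latter, 2 were lower at an unadjusted p under 0.05. With library-size scaling 3 passed as lower in edgeR, as did 4635 of all 12042 tested genes. The median of the 8 was -0.29, with -0.41 ± 0.65 for the invariant chain gene Cd74 and -0.37 ± 0.48 for H2-Aa.

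Chemokines and cytokines that respond to interferon were induced in part, with 10 of 14 tested members higher and 7 of them by 2-fold. Cxcl10, a chemokine that attracts T cells, stood at 0.622, 0.681, 1.01 and 48.7 CPM in control and at 214, 236, 204 and 214 CPM at 3 h. Control mouse 4 owed its value to 1 cell, and the log2 fold change of 6.88 ± 0.62 was 8.11 without that mouse, 4.15 by the likelihood ratio test and 4.10 by DESeq2. The decoy gene Il18bp rose by 3.56, Il27 by 3.32 (2.63 with equal shares of clusters built without listed genes) on values below 1 CPM in control, the death ligand gene Tnfsf10 by 2.44 and the checkpoint ligand gene Cd274 by 1.61.

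The induction was seen in most cells of every mouse. The UMIs of all interferon-list genes were summed in each cell after thinning every cell to 3000 UMIs, and a cell was counted when it held more than the 95th percentile of the control cells, 71 UMIs. The share of such cells was 87.2%, 89.8%, 90.8% and 86.2% in mice 1 to 4 at 3 h and 4.97%, 4.19%, 4.99% and 6.90% in the control mice. The means were 88.5% ± 2.13 and 5.26% ± 1.15 (SD, n = 4 each, two-sided exact permutation test, p = 0.0286). Above the 99th percentile of control, 101 UMIs, the shares were 57.5% and 1.11%. At least 1 Isg15 UMI was found in 330 of 330, 366 of 366, 612 of 613 and 352 of 352 cells at 3 h, and in 198 of 827, 159 of 764, 199 of 825 and 10 of 58 control cells, which held more UMIs per cell. Free RNA in the droplets was not measured and its part in these shares was not tested.

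Interferon-list UMIs per cell differed between clusters, both in control and at 3 h. The control cells were grouped into 14 clusters without use of any interferon-list gene. The cells at 3 h were given the cluster of their nearest control cells. Clusters are named here by number with their leading genes. Jchain led cluster 11 but is left out of its name, since 1 cell each held nearly all Jchain UMIs of control mice 1 and 2. At 3 h the median was 162 interferon-list UMIs per 3000 in cluster 2 (Ly6a, Hlf) and 186.5 in cluster 11 (Gzmb, Scin), against 52 and 51 in control. It was 73.5 in cluster 1 (Elane, Ly6c2, Mpo) and 82 in cluster 6 (Hba-a1, Car1), against 47 and 24 in control. All 146 thinned cells of cluster 9 (Csrp3) and all 94 of cluster 11 were above 71 UMIs at 3 h. In cluster 1, 36 of the 88 cells were not, and in cluster 6, 42 of the 106. That limit was the same for all clusters, and cluster 6 had the lowest control median. These are values over cells of 4 mice and the differences between clusters were not tested. Isg15, Ifit1, Ifit3, Irf7 and Usp18 were higher at 3 h in each of the 12 clusters that had at least 5 cells in at least 2 mice per time point. Such directions, and all CPM given per cluster, rest on scaling by total UMIs alone, without TMM factors. They are thus not on the scale of the fold changes over all cells.

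**Figure D3:**
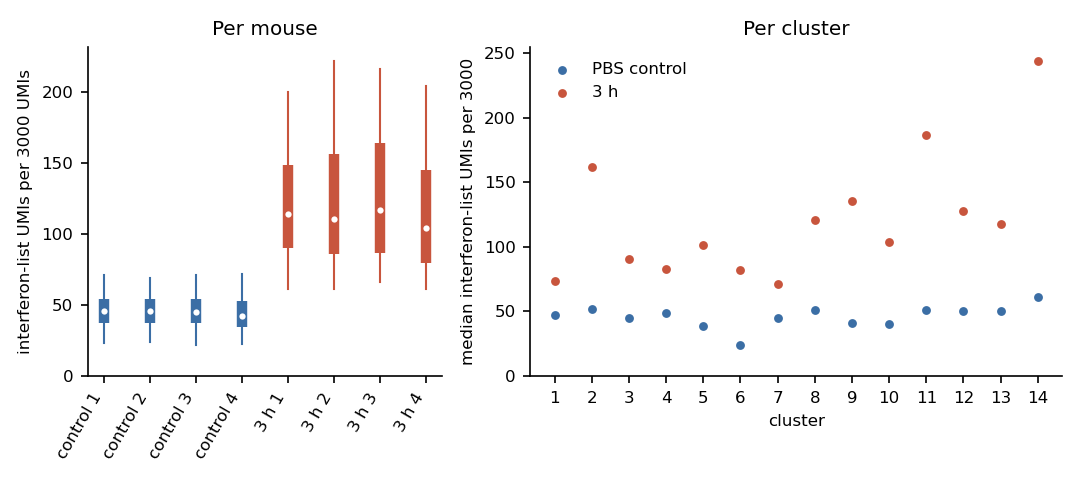
Interferon-list UMIs per cell after thinning each cell to 3000 UMIs, on the left for each mouse (white point the median, thick bar the middle 50% of cells, thin line the 5th to 95th percentile) and on the right as the median of each of the 14 clusters in control (blue) and at 3 h (red). Medians were 42.5 to 46 in the control mice and 104 to 117 at 3 h, and each cluster median was higher at 3 h.

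Outside the interferon lists, 3 of the 15 most induced genes lay within 100 kb of an interferon-list gene that passed as higher with a 2-fold change. Gm4955, on chromosome 1 (173468485 to 173491041, minus strand, GRCm38), rose from 0.518 to 0.870 CPM over the control mice to 56.4 to 64.6 CPM at 3 h, by 6.45 ± 0.15 on the log2 scale (5.77 with cells thinned to 5000 UMIs). It lies outside that distance, 139876 bases from Pyhin1. List membership went by symbol, and of the 16 symbols in the list of DNA sensing 10 were in the count matrices. Ifi206, Ifi207, Ifi208, Ifi209, Ifi213 and Ifi214 were among those not tested. Whether Gm4955 is 1 of these genes under another symbol was not checked. Of the 3 genes within 100 kb, Gm13822 (5.10) ends at base 114923277 on chromosome 5. It overlaps Oasl1 (114923240 to 114937915) on the opposite strand. By these coordinates, only reads in that overlap may belong to Oasl1 if strand was not used in counting. The use of strand is not given in the sources used here, and the place of the reads was not tested. Trim12c (2.63) lies 55663 bases from Trim30a and Trim12a (2.45) lies 37660 bases from Trim34a, both antiviral relatives of the TRIM family. In all, 489 mapped genes outside the lists were higher with a 2-fold change. Of these, 54 (11%) lay within 100 kb of an interferon-list gene that was also higher with a 2-fold change, against 274 of 11352 other tested genes (2.41%). The rest of the 15 had no such neighbor within that distance, with Gm4070 lying 202589 bases from Gvin1. Gm4070 (4.55), Samd9l (3.34), the latter an antiviral factor, Rnf213 (3.07), Mitd1 (2.73), Trafd1 (2.6) and the protease inhibitor gene Serpina3g (3.28) rose in every mouse at 3 h. Lsm7 (2.43), part of the ring that binds U6 snRNA, rose too. Gstp1, a glutathione transferase, rose from 21.1 to 22.6 CPM in control to 134 to 149 CPM at 3 h, by 2.71 ± 0.06, in each of 12 clusters. It stood at 52.3 to 58.6 CPM at 24 h and at 61.3 to 68.8 at 72 h. Lsm7, at 35.1 to 45.2 CPM in control, stood at 80.5 to 89.4 and 122.5 to 129.3 CPM at these times. Library and time point cannot be told apart, and whether interferon raised these genes was not tested.

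Short transcripts rose together at 3 h in a pattern that did not follow the interferon lists. Rpl35, a protein of the large ribosomal subunit (chromosome 2, 39001580 to 39005624, minus strand), stood at 644, 668, 665 and 654 CPM in control and at 3430, 3601, 3521 and 3505 CPM at 3 h. The mice of each group lay close together and the groups were far apart, with a log2 fold change of 2.42 ± 0.03 (adjusted p = 7.3e-36), and the gene was higher in each of 12 clusters. Rpl38 (1.67), Rps29 (1.66), Rps28 (1.65) and Rps27 (1.55) rose as well. Of 82 ribosomal protein genes 50 passed as higher and 18 as lower (41 and 34 with library-size scaling), 11 of the former with a 2-fold change, and the list sum rose from 303300 ± 4426 CPM to 373300 ± 5466 CPM (SD, n = 4). All 11 whose transcript was at most 500 bases long passed as higher, with a median of 1.29, against 39 of the 71 longer ones, with a median of 0.12. Among the 158 tested genes outside the interferon lists with transcripts of at most 500 bases, 64.6% passed as higher, with a median of 0.64, against 16.9% of the 2735 genes with transcripts over 4000 bases, with a median of -0.02. With each mouse's trend over transcript length removed, the ribosomal list still had 45 higher and 24 lower, and a median of 0.10. The ribosomal copy Rps12-ps3, whose reads resemble those of its parent gene, passed as lower (-1.04).

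Histone and mitochondrial genes held other parts of this pattern. Of 58 tested replication-dependent histone genes, whose transcripts are short and normally end without a poly(A) tail, 38 passed as higher, 23 of them by 2-fold, and 2 as lower, with a median of 0.83. Hist1h2ap went from 18, 18.9, 20.6 and 18.3 CPM to 302, 304, 394 and 408 CPM, a log2 fold change of 4.21 ± 0.17, and Hist1h4h rose by 2.39. Near-identical histone genes may share reads. Of the 13 genes encoded by the mitochondrial genome 11 passed as higher (6 higher and 4 lower with library-size scaling), the largest being mt-Nd3 (1.66), mt-Nd4l (1.64) and mt-Atp8 (1.29), subunits of complex I and of the ATP synthase. With the length trend removed mt-Atp8 came to 0.43 and mt-Nd4l to 1.04. Nuclear genes of the respiratory chain gave 35 higher and 29 lower of 82 (42 and 14 with equal cluster shares, 28 and 41 with library-size scaling), and a median of 0.04 that became -0.11 with library-size scaling, although Atp5k (1.61), Ndufa3 (1.33) and Cox7c (1.06) rose by 2-fold. Values at the later time points lay between those of control and 3 h, with Rpl35 at 1519 to 1554 CPM at 24 h and 2345 to 2453 at 72 h, and Hist1h2ap at 127 to 170 and 85.5 to 126 CPM. Library and time point cannot be told apart for these genes.

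Among cell cycle genes, those of G2/M were mostly lower at 3 h. Of 34 tested G2/M genes 27 passed as lower and the other 7 did not pass, with a median of -0.48 (20 lower and 1 higher with equal cluster shares), and in 23 of them every mouse at 3 h lay below every control mouse. Mki67, the proliferation antigen, stood at 121, 131, 127 and 104 CPM in control and at 71.1, 71.3, 66.5 and 81.2 CPM at 3 h. Its log2 fold change was -0.78 ± 0.08 (adjusted p = 3.1e-08), and the groups did not overlap. The mitotic kinase gene Plk1 (-1.03), Ube2c (-0.89), the cyclin gene Ccnb1 (-0.79) and the spindle checkpoint target Cdc20 (-0.73) passed as lower too. Mki67 was lower in 11 of 12 clusters. Cluster 10 (Nusap1, Prc1, Ube2c) held 3.92% ± 2.65 of the control cells and 3.8% ± 0.895 at 3 h (SD, n = 4). Cluster 3 (Hist1h1b, Nusap1) held 11.9% ± 3.65 and 8.66% ± 2.36. Among the clusters built without listed genes, that led by Nusap1 and Prc1 held 8.65% ± 1.19 and 14.3% ± 2.83. The cluster led by Hist1h1b held 5.64% ± 2.04 and 2.02% ± 0.247. S phase genes gave 6 higher and 7 lower of 32 with a median of -0.03, but 9, all of them higher, passed with equal cluster shares, and the counts were 8 and 1 with thinned cells and 6 and 19 with library-size scaling. Among them were the chromatin remodeler gene Hells at 0.92 and the cyclin gene Ccne2 at 0.54. Among regulators of cell cycle entry, the D-type cyclin gene Ccnd2 rose from 133 to 148 CPM in control to 384 to 440 CPM at 3 h, by 1.58 ± 0.05 and in each of 12 clusters. Myc (0.45) and the inhibitor gene Cdkn1a (0.81) rose as well. Of the 17 regulators 7 passed as higher and 4 as lower.

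Ribosome biogenesis genes, many of them targets of MYC, gave 13 higher and 1 lower of 32, with a median of 0.12 that turned to -0.03 with library-size scaling. Wdr43 (1.2 ± 0.05) and Ddx21 (1.12 ± 0.05), proteins of rRNA synthesis and processing, rose in each of 12 clusters, and Gnl3 rose by 0.73. Glycolysis genes moved apart from each other. Pgk1 rose from 20.7 to 23.9 CPM to 72.2 to 96.9 CPM, by 1.86 ± 0.08, and Hk2, which phosphorylates glucose, by 1.80 ± 0.10, and Eno1 by 0.45, while of the 20 genes 5 passed as higher and 8 as lower, with a median of 0.01 that came to -0.14 with library-size scaling. Purine synthesis genes gave 4 higher and 6 lower of 18, aminoacyl-tRNA synthetases 7 and 3 of 20, cholesterol synthesis and uptake 3 and 5 of 21, the constitutive proteasome 5 and 9 of 31, the endoplasmic reticulum (ER) translocon 6 and 12 of 26, and mitochondrial ribosomal proteins 14 and 16 of 76. The largest values in the synthetase and purine lists were Nars (0.73) and Pnp (0.66). Their medians ran from -0.12 to 0.05, and that of the synthetases, 0.05, came to -0.1 with library-size scaling. Several of these counts turned with the setting. With equal cluster shares the 11 proteasome genes that passed were all higher, the translocon gave 11 higher and 1 lower, and the mitochondrial ribosomal proteins 23 and 5. With library-size scaling the 3 lists gave 1 and 24, 4 and 18, and 8 and 47. Over all tested genes 2181 of 12086 were higher and 1816 lower with equal cluster shares. With library-size scaling 1588 of 12042 were higher and 4635 lower, so those counts moved with the whole set of genes.

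**Figure D4:**
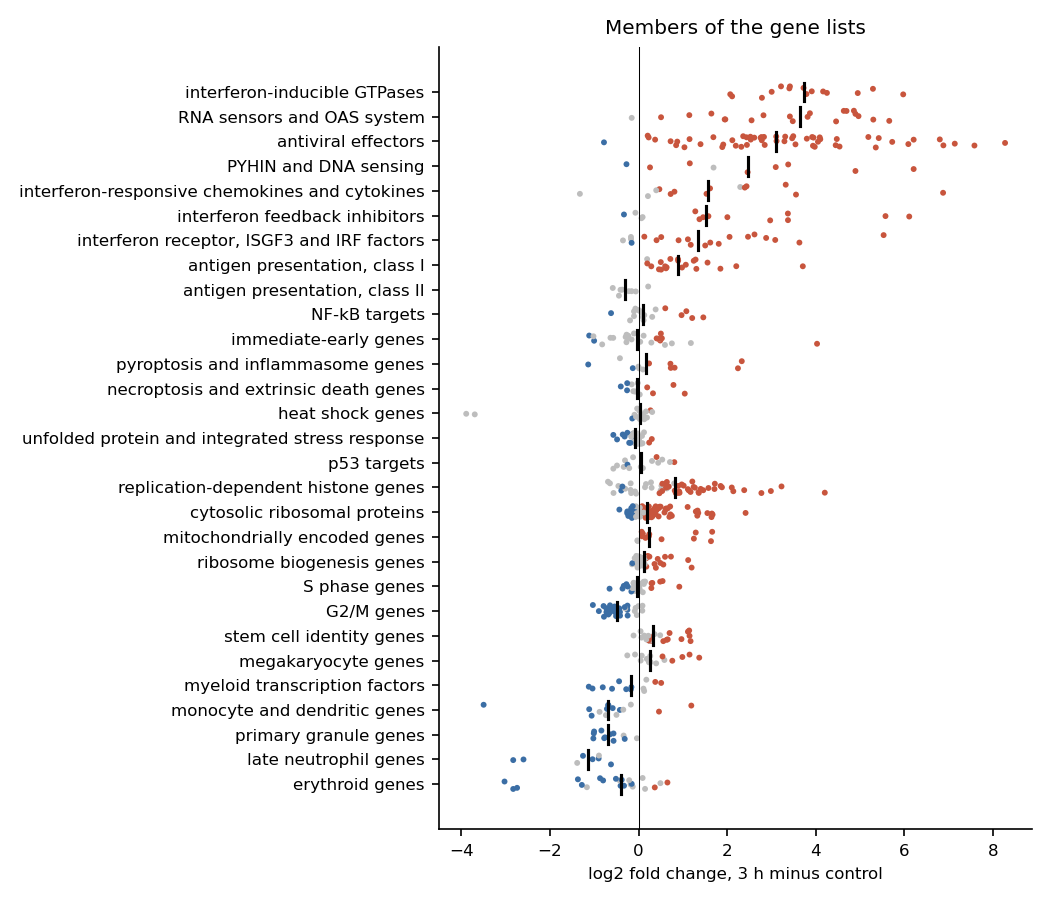
Log2 fold change of every tested member of 29 gene lists, with red points for members that passed as higher (adjusted p under 0.05), blue for those that passed as lower, grey for the others, and a black line at each list's median. The GTPase, RNA sensor and effector lists lie furthest to the right with medians of 3.72, 3.65 and 3.11, the late neutrophil list has the lowest median, and small medians such as those of NF-κB targets (0.10), ribosome biogenesis (0.12), heat shock (0.04) and p53 targets (0.05) turned negative with library-size scaling.

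Genes of the granulocyte lineage were lower at 3 h. Of 12 genes of primary granules and early neutrophil progenitors 10 passed as lower, with a median of -0.7. Elane, the neutrophil elastase, stood at 5538, 5795, 5184 and 3712 CPM in control and at 3195, 2147, 2166 and 2589 CPM at 3 h, with a log2 fold change of -1.01 ± 0.17 (adjusted p = 0.00044). Every mouse at 3 h was below every control mouse, and the same held for the myeloperoxidase gene Mpo (-0.77), with 2958 to 3919 CPM in control and 1626 to 2444 at 3 h. Prtn3 (-0.76), Ctsg (-0.84) and Prss57 (-1.02) passed as lower too. Of 8 late neutrophil genes 6 passed as lower, among them the ficolin gene Fcnb at -2.83 ± 0.47, but DESeq2 called 3 of 7 lower, and in 1 of the 8 every mouse at 3 h lay below every control mouse. In sums over all cells, fewer cells of a type and less RNA per cell cannot be told apart, and here the cell shares moved with the genes. Cluster 1 held 12.2% ± 0.173 of the control cells and 5.64% ± 2.03 of the cells at 3 h (SD, n = 4). Cluster 7 (S100a8, S100a9) held 6.18% ± 1.02 and 0.783% ± 0.381, with 160 control cells and 13 cells at 3 h. Mice 1 to 4 at 3 h had 4, 3, 5 and 1 of these cells. Cells were then weighted toward the same cluster shares in every mouse, here called equal cluster shares. With these weights none of the 12 primary granule genes was lower at an adjusted or an unadjusted p under 0.05 in edgeR, and 1 passed as higher. DESeq2 on the unweighted sums called 9 lower. With equal cluster shares the values were 0.14 for Elane, -0.00 for Mpo, 0.02 for Prtn3, -0.04 for Ctsg and -0.08 for Prss57, Ly6c2 came to 0.22, and Fcnb came to -0.82 and lost its call.

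These genes had helped to form the clusters, so the weighting was repeated, as a step chosen after the data were seen, with 13 clusters built without any gene of any list. A cluster led by S100a8, S100a9, Cebpe and Elane then held 13.5% ± 1.73 of the control cells and 4.05% ± 1.8 of the cells at 3 h. Under equal shares of these clusters 5 of the 12 primary granule genes passed as lower, with a median of -0.18. Elane was then -0.2, Mpo -0.18 and Ctsg -0.23, each still past the threshold, whereas Prss57 at -0.3 and Ly6c2 at -0.2 were not. Fcnb was -1.53. Of 9 late neutrophil genes none passed in edgeR with equal shares of the first clusters, where 2 were higher at an unadjusted p under 0.05. With the clusters built without listed genes 1 passed as lower. Cluster 7 had 13 cells at 3 h, so a lost call of these genes cannot tell whether their RNA per cell changed. Within cluster 1 of the first clustering Elane averaged 11740 CPM in control and 12100 CPM at 3 h, scaled by total UMIs without TMM factors.

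The transcription factors of the myeloid lineage did not move as 1 group. Irf8, which directs cells toward monocytes and dendritic cells, stood at 123, 125, 107 and 115 CPM in control and at 61.2, 48.2, 43.6 and 66.2 CPM at 3 h. Its log2 fold change was -1.12 ± 0.12 (adjusted p = 1.9e-06), -0.92 with equal cluster shares, and it was lower in each of the 11 clusters with at least 10 UMIs. In cluster 4 (F13a1, Ms4a6c, Irf8) it averaged 295 CPM in control and 163 at 3 h. Cebpe, a factor of late granulocyte maturation, passed with -1.04 and Gfi1 with -0.81, but they came to -0.05 and 0.06 with equal cluster shares and to -0.06 and -0.11 with the clusters built without listed genes, without a call. With equal cluster shares Cebpa (-0.60) and Spi1 (-0.44) remained past the threshold with -0.31 and -0.17. Etv6 rose by 0.51. Of the 13 factors 8 passed as lower and 2 as higher, and 5 and 1 under either weighting.

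**Figure D5:**
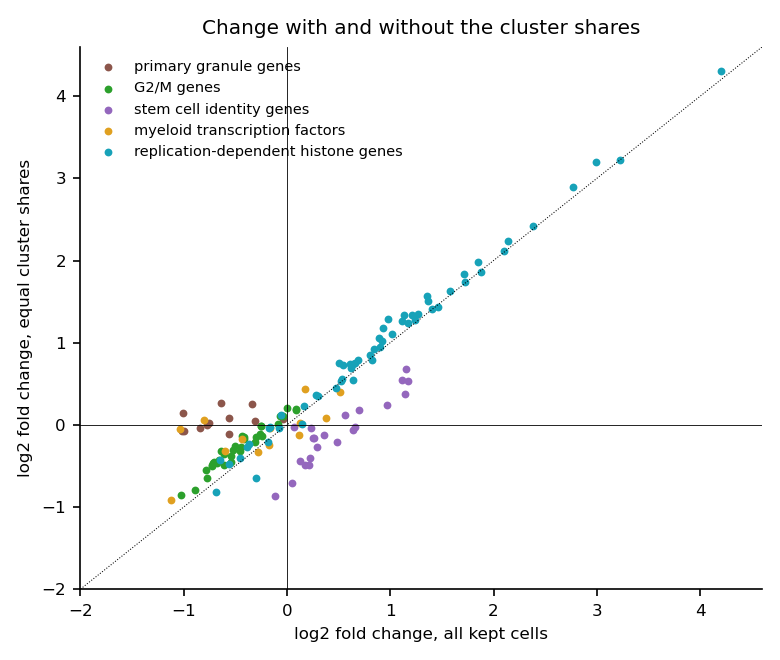
Log2 fold change with equal cluster shares in every mouse (vertical axis) against that over all kept cells (horizontal axis) for the tested members of 5 gene lists, with a dotted line where both are equal. Primary granule genes lie near 0 on the vertical axis, G2/M genes have a median of -0.29 there, stem cell genes move from a median of 0.33 to -0.09, and histone genes lie near the line with medians of 0.83 and 0.89.

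Monocyte and dendritic genes fell in part. Of 15 tested members 8 passed as lower and 2 as higher, and 7 and 2 with equal cluster shares. The receptor gene Csf1r went from 12.9 to 19.1 CPM in control to 5.31 to 9.91 CPM at 3 h (-1.09 ± 0.15, and -0.86 with equal cluster shares), and the transglutaminase gene F13a1 passed with -1.06 ± 0.15 (-0.73). Psap, which codes for the lysosomal saposins, was lower in each of 12 clusters (-0.68), and the lysosomal protease gene Ctsh passed with -1.61 ± 0.19 (-1.30). Lgals3 went from 25.8, 14, 13.5 and 3.48 CPM to 0, 3.49, 0.759 and 2.18 CPM, so that the lowest control mouse met the highest mouse at 3 h. Its value of -3.5 ± 0.68 was -4.13 without mouse 2 at 3 h, -2.88 with thinned cells and -2.74 with equal cluster shares. Ms4a6c of the same list moved the other way, from 150 to 178 CPM in control to 308 to 421 CPM at 3 h, by 1.19 ± 0.10 and in each of 12 clusters. The Fc receptor gene Fcgr3 passed with -1.23 but stood at -0.32 with equal cluster shares. Of 14 growth factor receptors 4 passed as higher and 5 as lower, against 19.6% and 19.2% of all tested genes. Csf2rb rose by 0.86 and its relative Csf2rb2 by 1.81 (1.11 with thinned cells), while Csf2ra passed with -0.54, a call that was lost with equal cluster shares at -0.15.

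The largest decreases lay in genes that few cells carried. Jchain, which joins immunoglobulin chains, had the lowest log2 fold change of all, -9.62 ± 2.34 (adjusted p = 0.00546), with 148, 112, 1.12 and 0.870 CPM in control and 0.219, 0.218, 0 and 0 at 3 h. In control mouse 1 a cell with 2838 of the 2847 Jchain UMIs, and in control mouse 2 a cell with 1965 of 1981, made up these values. The value was -8.93 without control mouse 1, -10.2 without mouse 1 or 2 at 3 h, -8.83 with thinned cells and -10.5 with equal shares of clusters built without listed genes. The eosinophil granule gene Prg2 (-4.63 ± 1.19) stood at 63.4, 199, 165 and 0 CPM in control and at 12.9, 0, 0.506 and 9.71 CPM at 3 h, with overlapping groups. The basophil protease genes Prss34 (-3.90 ± 1.03) and Mcpt8 (-1.71 ± 0.51) overlapped between groups too. In control mouse 2 Prg2 was found in 22 of 764 cells, and at 3 h in 1, 0, 3 and 2 cells. Prg2 was -5.39 without mouse 1 at 3 h, -3.78 with equal shares of clusters built without listed genes, and lost its call by DESeq2 (-4.19). Prss34 was -5.25 without mouse 4 at 3 h, -3.19 without control mouse 3 and -3.12 with equal shares of those clusters. Mcpt8 was -2.32 without mouse 4 at 3 h and lost its call in 7 settings, with values from -1.24 to -1.68, among them those without mouse 3 of either group. Basophil and mast cell markers summed to 146 to 771 CPM in control and 178 to 273 CPM at 3 h, with 4 of 7 lower, and eosinophil markers to 12.2 to 248 and 9.38 to 37.6 CPM, with 1 of 4 lower. Cluster 12 (Prss34, Prg2, Mcpt8) held 94 control cells and 24 cells at 3 h.

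Erythroid genes were lower in part. Of 22 tested members 12 passed as lower and 2 as higher, with a median of -0.39, and the counts were 12 and 1 with equal cluster shares and 8 and 1 with the clusters built without listed genes. The globin genes Hba-a1 (-3.02 ± 0.88) and Hbb-bs (-2.83 ± 0.91) varied widely in control, with 88.8, 4.94, 79.8 and 32.2 CPM for Hba-a1, while the mice at 3 h lay between 2.97 and 8.47 CPM. Hbb-bs missed the threshold without control mouse 1 (-2.13), without control mouse 3 (-2.69), without mouse 1 (-2.72), 3 (-2.74) or 4 (-2.9) at 3 h, with thinned cells (-2.07) and in the fit of these 8 mice alone (-2.8), where Hba-a1 (-3) missed it too. The water channel gene Aqp1 went from 30.5 to 36.7 CPM to 15.8 to 24.9 CPM, without overlap, at -0.87 ± 0.13 and lower in each of 8 clusters. Cluster 6 held 8.22% ± 1.53 of the cells in control and 6.48% ± 2.17 at 3 h.

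Stem cell genes, and some megakaryocyte genes, were higher over all cells, with fewer such calls at equal cluster shares. Of 22 stem cell identity genes 12 passed as higher, with a median of 0.33. Under equal cluster shares 4 passed as higher and 5 as lower, with a median of -0.09, and with the clusters built without listed genes 5 and 5, with a median of -0.11. Mecom, a factor of HSC self-renewal, went from 13, 9.77, 12.3 and 14.8 CPM to 24.9, 26.6, 29.8 and 24.6 CPM, by 1.18 ± 0.10 (0.54 with equal cluster shares and 0.43 with the other clusters). Ifitm1, which is also an interferon gene, rose by 1.15 ± 0.17 (0.69), and Mycn by 0.97 ± 0.19 (0.24, without a call, and 0.35 with the other clusters). Of 16 megakaryocyte genes 5 passed as higher, among them Plek (1.15 ± 0.16), and the median of 0.27 became -0.27 and -0.04. Cluster 2 held 13.2% ± 3.21 of the control cells and 22.4% ± 2.53 of the cells at 3 h, and cluster 5 (Pf4, Gp1bb, Itga2b) 9.97% ± 0.828 and 15.1% ± 1.85. Among the clusters built without listed genes, that led by Ly6a and Hlf held 9.2% ± 1.75 and 16.2% ± 3.46, and that led by Pf4 and Gp1bb 4.95% ± 1.27 and 5.61% ± 1.77.

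Genes of inflammatory cell death were induced in a few members. Il18, the cytokine cleaved by inflammasomes, rose from 5.53 to 6.96 CPM to 26.0 to 34.6 CPM (2.33 ± 0.12, and 1.73 with equal cluster shares), and Casp4, which senses bacterial lipopolysaccharide inside the cell, by 2.25 ± 0.10. Casp1 (0.72) rose in each of 12 clusters, Mefv, which codes for pyrin, passed as lower (-1.14, and -0.44 without a call with equal cluster shares), and of the 12 tested pyroptosis genes 6 passed as higher and 2 as lower. The pore-forming necroptosis effector gene Mlkl stood at 21.8, 20.1, 19.1 and 12.2 CPM in control and at 43.5, 37.1, 42.4 and 41.6 CPM at 3 h, without overlap (1.04 ± 0.08), and Casp8 rose by 0.79. Of the 13 necroptosis and extrinsic death genes 4 passed as higher and 3 as lower, and of the 11 tested BCL2 family genes 2 and 4.

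Calls in other stress programs are given beside a background of 19.6% of all genes higher and 19.2% lower. Both counts of the p53 target and heat shock lists lay below these shares. Among NF-κB targets 5 of 18 passed as higher and 1 as lower, with Tnf (1.08 ± 0.21, and 1.70 with thinned cells) and Bcl3 (1.21 ± 0.18) rising on values below 20 CPM, and a median of 0.10 that turned to -0.04 with library-size scaling. Immediate-early genes gave 6 and 2 of 26, and the largest, Atf3 (4.03 ± 0.51), rested on 0 to 0.114 CPM in control and 1.31 to 3.27 at 3 h. The unfolded protein and integrated stress response gave 2 higher and 9 lower of 26. With equal cluster shares the count became 12 higher and 1 lower, and Edem1 went from -0.48 to -0.04 and lost its call. Under that setting 2181 of all 12086 tested genes were higher and 1816 lower. The p53 target list gave 2 and 1 of 15 and heat shock genes 1 and 1 of 16, with medians of 0.05 and 0.04 that came to -0.1 and -0.11 with library-size scaling. The heat shock genes Hspa1a and Hspa1b, near-identical copies named after their values were seen, stood at 6.17 to 59.2 and 9.12 to 54.9 CPM in control and at 0.656 to 2.97 and 1.14 to 4.76 CPM at 3 h. Their adjusted p in edgeR were 0.0614 and 0.0643, and both gained a call as lower (-4.66 and -4.38) with the hashtag number as a block. Handling and dissociation genes summed to 491 to 1274 CPM in control and 520 to 726 CPM at 3 h, and of the 12 genes Atf3 passed.

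Receptors for homing and adhesion gave 3 higher and 4 lower of 13. Cxcr4, the receptor that holds HSPCs in the marrow niche, went from 56.8, 56.9, 60 and 64.4 CPM to 36.8, 37.3, 35.7 and 40.2 CPM (-0.64 ± 0.07, adjusted p = 1.25e-09), lower in 11 of 12 clusters and without overlap between the groups. Cd47, the signal against phagocytosis, rose by 0.27. Lymphoid priming genes gave 2 higher and 3 lower of 14. Over all tested genes 19.6% passed as higher and 19.2% as lower.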

How the data were processed

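HSPCs of 16 mice, 4 per time point, were measured by single-cell RNA-seq in 1 library per time point, with a hashtag antibody per mouse. The deposited matrices hold UMI counts per gene and barcode, which the authors made with Cell Ranger 3.1.0 on mm10 (annotation release and use of strand not given in the sources used here) before normalization. The hashtag call of each cell is the authors' own, made with Seurat. Barcodes called as doublets or without a hashtag were left out, and no further doublet caller was run.

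Counts of kept cells (at least 700 genes, at most 5% mitochondrial UMIs) were summed per mouse. Genes were filtered with filterByExpr, scaled with TMM factors and fitted with a robust quasi-likelihood model in edgeR 4.0.16 (R 4.3.3) over all 16 mice, and p-values were adjusted over all tested genes by Benjamini-Hochberg. Values per mouse are CPM with TMM factors, errors of log2 fold changes are SE, and 4 against 4 mice allow no exact p below 0.0286. CPM and directions per cluster were scaled by total UMIs alone. Per the study's methods each hashtag marked 1 biological replicate, taken here as 1 mouse. On simulated counts of 11950 genes for this comparison, 81 of 99 genes changed by 2-fold and 99 of 99 changed by 4-fold were found, with 8 false calls. Found meant an adjusted p under 0.05 in the edgeR test, without a minimum fold. Only 200 genes were changed there, whereas 19.6% of the tested genes passed as higher and 19.2% as lower in the data. These counts therefore do not speak to errors under a shift of many genes.

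Cells were clustered with scanpy 1.11.5 on control (500 variable genes, 10 components, 15 neighbours, Leiden resolution 0.8) without the interferon lists, and cells at 3 h took the label of their nearest control cells. For equal shares each cell was weighted, by at most 5, toward the same share of each cluster in every mouse. Some shares stayed unequal, since weights were limited and some clusters had no cell in a mouse. Cluster 7 in mouse 4 at 3 h, with 1 cell, stayed below its share. Alternatives were other scalings, tests (DESeq2 1.42.0), filters, thinning to 5000 UMIs per cell, removal of a length trend, the hashtag number as a block, leaving out each mouse and, added after seeing the data, clusters built without any listed gene. Cells were thinned to 3000 UMIs for values per cell.

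The 53 gene lists, 8 of them of interferon genes, and the comparison were chosen with earlier results of these data known. Named genes were, up to 6 per list, those with the largest called change (the most abundant where none passed), the 15 with the largest called 2-fold change in each direction at a mean of at least 20 CPM, both among all genes and outside the interferon lists, and the 5 most abundant called genes of each direction. Others are said to have been named after their values were seen. Coordinates are of GENCODE vM21 (GRCm38) and promoters of RefSeq (GRCm38.p6). A few genes that met these rules are not reported here.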

Additional observations from a re-analysis of the deposited data

Results flagged for a closer look

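Of 290 groups of 4 mice tested for a mouse far from the other 3, 37 were flagged by the gap to the nearest mouse, and 28 of these were control mouse 4. Chance flags about 1 in 20 groups. Control mouse 4 had fewer kept cells (58) and UMIs (1102706) than the other control mice, and lower medians per cell of UMIs (15818.5) and genes (3630).

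Several interferon-list genes were higher in control mouse 4 than in the other control mice. In CPM its values were 13.05 for Ifit3, 1.74 for Ifit1bl1, 1.74 for Mx1, 13.05 for Rsad2, 17.4 for Ifi44 and 11.31 for Usp18. Among sensors it had 2.61 CPM of Oas1g, 3.48 of Oas2, 15.66 of Oasl2 and 21.75 of Zbp1. It had 24.36 CPM of Iigp1, 11.31 of Tgtp2 and 48.72 of Cxcl10, and outside the lists 4.35 of Gm4070, 16.53 of Samd9l, 72.21 of Serpina3g, 45.24 of Lsm7, 61.77 of mt-Nd4l and 33.06 of Mycn. It was below the other control mice in Trim12a (20.01 CPM), Fcnb (1.74), Hk2 (9.571), Atf3 (0) and Cd74 (0.8701). The report gives the Isg15, Ifit3 and Cxcl10 UMIs held by its top cell for each gene.

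At 3 h, mouse 3 stood above the others in kept cells (613), UMIs (8553452), Irf7 (381.3 CPM) and Ifitm1 (940 CPM), and below them in Ccnb1 (20.23 CPM) and Ccne2 (31.74 CPM). Mouse 4 stood apart in Trim12c (144.1 CPM, below) and Prss34 (46.77 CPM, above), and mouse 2 in Csf2ra (32.27 CPM, below).

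Barcodes without a hashtag call entered no comparison. The 11 such barcodes at 3 h that passed the cell filters carried 31264.9 CPM of interferon-list genes, against 14630.3 CPM in the 43 of the control library.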

How the results depend on the processing

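Across 140 named genes and 21 other settings, 2870 of the values kept the direction and the side of the threshold, 46 kept the direction but lost the call, 14 gained one and 4 turned, and 118 genes kept both in every setting. The 4 values that turned did so with equal cluster shares, at 0.144 for Elane, 0.0190 for Prtn3, 0.0595 for Gfi1 and 0.222 for Ly6c2. That setting lost the most calls, 16, against 8 with clusters built without listed genes, a setting added after seeing the data. With library-size scaling 4635 genes were lower without a minimum fold. With the 8 mice alone 128 genes were lower by 2-fold, with equal cluster shares 131, and by DESeq2 122, with 1165 lower without a minimum fold. These were in part other genes. Of the 197 genes lower by 2-fold, 126 kept that call with the 8 mice alone and 116 by DESeq2. With equal cluster shares 85 did, with clusters built without listed genes 89 and with cells thinned to 5000 UMIs 84. Of the 627 genes higher by 2-fold, the latter settings kept 511, 507 and 411. Thinning to 5000 UMIs left 1527 higher and 1165 lower without a minimum fold, with fewer UMIs tested. Leaving out 1 mouse gave 617 to 659 genes higher and 183 to 228 lower by 2-fold, and 2075 to 2377 and 2045 to 2395 without a minimum fold. The difference in median genes per cell ran from -987.625 to -808.625 with 1 mouse left out, and without a mouse at 3 h its exact p was 0.0571. The share of cells above the control percentile, less that in control, ran from 82.5 to 84 percentage points with 1 mouse left out, and was 80.8 with thinning to 1500 UMIs, 84.7 with 6000, 87.1 without the 5 interferon-list genes with the most control UMIs and 56.4 above the 99th percentile. With the hashtag number as a replicate block 637 genes were higher and 204 lower by 2-fold, and 2372 and 2303 without a minimum fold, and Hspa1a (-4.66, adjusted p = 0.0013) and Hspa1b (-4.38, adjusted p = 0.0057), which had none, gained a call as lower. No label ties mice with the same number to each other. Their deviations correlated at 0.241, -0.186, -0.118 and -0.213 for numbers 1 to 4. The highest correlations with a mouse of another number were 0.067, 0.186, 0.179 and 0.244. Whether mice of the same number share more than the number was not tested. With the length trend removed the counts were 603 and 195 by 2-fold. Clusters numbered 10 at a resolution of 0.5, and 90.8% of the cells at 3 h kept their label with 5 neighbours. Low counts, as in control mouse 4, limit the folds of genes near 0 CPM in control.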
